A study of Rattus norvegicus with 9 samples.

Results

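The transcripts described here come from 10 genes of the NRF2 and antioxidant programme, measured by RNA sequencing in rat bone marrow-derived dendritic cells. The 10 genes were taken by name from the 20442 genes of the deposited expression table, and all 10 passed the filter on low values that 11141 genes passed. They are Nfe2l2, which encodes NRF2 itself, 5 genes of quinone, thiol and superoxide detoxification (Nqo1, Txnrd1, Srxn1, Prdx1 and Sod2) and 4 genes of glutathione supply and recycling (Gclc, Gclm, Slc7a11 and Gsr).

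The study compared 9 libraries of wild-type primary rat cells, 3 in each of 3 groups, to ask how extracellular vesicles (EVs) act on dendritic cells. Every culture was kept in 10% serum with GM-CSF and IL-4 at 20 ng/mL each, the cytokines that turn bone marrow precursors into dendritic cells. Control received no treatment, LPS received lipopolysaccharide (bacterial endotoxin, sensed by Toll-like receptor 4) at 1 µg/mL, and LPS+EVs received LPS and EVs from cells named only as ASCs, with a treatment time of 24 h. The labels also list 50 ng/mL of an agent without naming it, so which groups received it, and the EV dose, are unknown here. Replicates are labelled as biological but nothing ties them to separate animals, so p-values measure the spread between these cultures.

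NRF2 is a transcription factor that the adaptor KEAP1 normally hands to a ubiquitin ligase for destruction. Oxidants and electrophiles modify KEAP1, NRF2 then accumulates, pairs with small MAF proteins and binds antioxidant response elements in the control regions of its target genes. In dendritic cells and macrophages LPS sets off production of reactive oxygen species, and NRF2 targets buffer them, while Sod2 is also a well-known target of NF-kB.

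Promoter windows are shown because they hold the letters that NRF2 or the LPS-responsive factor AP-1 can read, next to genes that are compared below. RefSeq windows of the GRCr8 build, from 250 bases before to 50 bases after a transcription start, were matched by symbol for 9 of the 10 genes, with 2 windows for Txnrd1 and none for Gsr. They were searched on both strands for the core of the antioxidant response element, TGACNNNGC, and for the AP-1 site, TGANTCA, which can overlap. The core was found in 5 of the 9 genes, against 12.1% of all 33469 windows of that length and 13.1% of 27457 genes. The AP-1 site was found in 2 of the 9 genes, against 7.33% of windows and 8.04% of genes, and a core overlapping an AP-1 site was found in 0.418% of windows. Each line gives the strand of the gene 5′ to 3′, with the match in capitals. The core lies on the opposite strand in Gclm, Txnrd1, Prdx1 and Sod2, where the capitals show its reverse complement, and for Srxn1 the capitals are its 2 AP-1 sites.
Gclm, chr2:213031943-213031991, plus strand, 172 bases before the start: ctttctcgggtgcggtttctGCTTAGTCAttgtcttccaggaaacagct
Txnrd1, chr7:22755954-22756002, minus strand, 78 bases before the start: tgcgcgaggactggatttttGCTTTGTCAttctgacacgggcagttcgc
Prdx1, chr5:135383751-135383799, plus strand, 135 bases before the start: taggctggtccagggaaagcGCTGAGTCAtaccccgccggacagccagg
Sod2, chr1:50050175-50050223, minus strand, 35 bases before the start: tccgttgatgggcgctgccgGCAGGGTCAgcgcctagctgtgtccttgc
Nfe2l2, chr3:81028950-81028971, minus strand, in the transcribed part: gactagccatTGACGCCGCctc
Srxn1, chr3:161064730-161064818, plus strand, sites 62 and 5 bases before the start: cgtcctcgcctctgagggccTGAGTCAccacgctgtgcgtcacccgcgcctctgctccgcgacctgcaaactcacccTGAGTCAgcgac

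In Prdx1 the core and an AP-1 site share their letters, and a further AP-1 site lies 248 bases before the start. In Srxn1 the letters GC follow the AP-1 site 5 bases before the start. With them the stretch differs from the searched core only in having G in place of C after TGA. Forms of the element other than TGACNNNGC were not searched, so this stretch is not in the count of cores. Neither motif was in the windows of Nqo1, Gclc or Slc7a11 or in the other Txnrd1 window, which says only that these letters are not in those bases. A match is a description of the sequence and not a binding site.

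Values are FPKM, the fragments counted in a gene divided by its length and by the depth of its library, so levels can be compared between genes. The steps between FPKM values returned whole reads, with totals of 32148519 to 39407116 reads per library, and the 10 genes held 414 to 80369 reads each per library, so counting error was small beside the spread between replicates. The 3 libraries numbered 2 stood apart from the others. Over 12 dendritic cell markers, of which Itgax was at 29.8 to 52.0 FPKM in every library and Flt3 was near 0 (0.0 to 0.108 FPKM), the summed level was 8324 to 9758 FPKM in these 3 libraries and 1183 to 3436 FPKM in the other 6. MHC class II genes carried that gap, with Cd74 at 5855 to 6137 against 939 to 2550.3 FPKM and RT1-Da at 912 to 1477 against 39.0 to 386 FPKM, while Itgax did not follow it. Of the 10 macrophage and monocyte markers, 7 were lower and 1, Cd68, was higher in LPS than in Control (limma adjusted p under 0.05). Their median log2 difference was -1.63, against -0.19 for all tested genes, of which 28.7% were lower and 12.3% higher. Cd68 had means of 429.5, 542 and 648 FPKM in Control, LPS and LPS+EVs. With Cd68 included, the 10 markers summed to 1089 to 1284 FPKM in Control, 762 to 893 in LPS and 897 to 1007 in LPS+EVs. The 7 neutrophil markers summed to 30.5 to 256, 1.8 to 6.66 and 4.07 to 17.3 FPKM in the same order. The 4 erythroid markers in the table gave 55.2 to 448, 4.88 to 9.58 and 3.72 to 8.84 FPKM (Alas2 was at 0 in every treated library and Hba-a1 in every LPS library), and the 8 stromal markers 159.5 to 473, 117 to 745 and 157 to 856 FPKM. The 3 T and NK cell markers in the table summed to at most 2.02 FPKM (Cd3d was at 0 in every Control and LPS library) and the 3 B cell markers to at most 0.185 FPKM (Cd79b was at 0 in every LPS and LPS+EVs library). In bulk RNA, fewer cells of a type and less RNA per cell cannot be told apart, and the part of these markers in the results below was not tested.

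In Control the order of levels ran from Prdx1, a peroxiredoxin that reduces hydrogen peroxide, at 578 ± 67.0 FPKM (SD, n = 3), to Gclm, the regulatory subunit of glutamate-cysteine ligase, at 10.0 ± 1.51 FPKM. Sod2 (313 FPKM) and Nqo1 (157 FPKM) followed Prdx1, and the libraries of these 3 genes did not overlap. Txnrd1 (66.3 FPKM), Srxn1 (57.5 FPKM) and Gsr (57.2 FPKM) came next and overlapped with each other. Nfe2l2 (36.1 FPKM), Slc7a11 (30.4 FPKM) and Gclc (26.7 FPKM) lay below Gsr without overlap. Slc7a11 overlapped with both Nfe2l2 and Gclc, Nfe2l2 lay wholly above Gclc, and Gclm lay below Gclc without overlap. In both treated groups the same 3 genes led, again without overlap, Srxn1 stood above Txnrd1 in mean with overlapping libraries, and Gclm stayed lowest in mean.

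**Figure D1:**
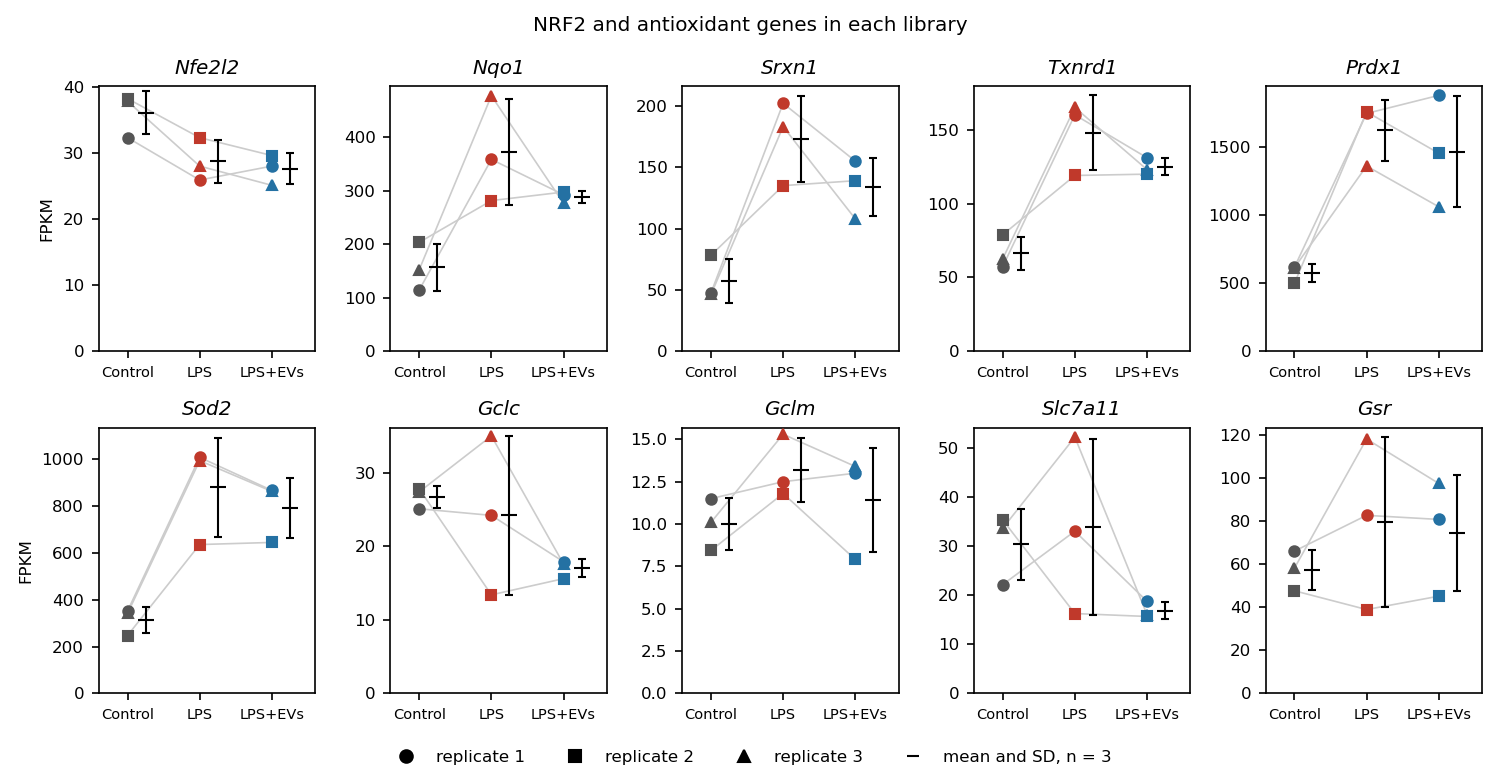
Each panel plots 1 gene: FPKM on the y axis against group on the x axis, with points for libraries, grey lines joining libraries of the same replicate number, and bars for the mean and SD of 3 libraries. Nqo1, Srxn1, Txnrd1, Prdx1 and Sod2 were higher in all 3 LPS libraries than in any Control library, while Gclc, Slc7a11 and Gsr spread widely within LPS.

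LPS cultures were compared with Control to see how the programme stood after endotoxin. Of the 10 genes 5 rose, namely Srxn1, Prdx1, Sod2, Nqo1 and Txnrd1, with rises of 2.21-fold to 3.03-fold, and none fell. Nfe2l2 itself and the 4 glutathione genes did not pass. Calls are from limma on log2(FPKM + 1), with Benjamini-Hochberg adjusted p under 0.05, and the background is 12.3% of all tested genes called higher and 28.7% called lower. The median difference of the 10 genes was 0.76 on the log2 scale and that of all tested genes -0.19. LPS libraries lay wholly above Control for 6 of the 10 genes (17.5% of all tested genes) and wholly below for 1 (37.6%). Rescaling libraries by median-of-ratios moved the median of all genes from -0.19 to 0.0 and the calls from 1368 higher and 3201 lower to 1893 and 2332, so falls are best read against that shift. Fold changes on this scale understate those of genes at low levels.

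Nfe2l2 (gene ID 83619) had 32.3, 38.2 and 37.8 FPKM in Control replicates 1, 2 and 3, then 25.9, 32.3 and 28.0 in LPS. All LPS libraries were below all Control libraries, but Control replicate 1 and LPS replicate 2 were equal to 3 digits. The log2 difference was -0.32 (SE 0.13, 95% interval -0.61 to -0.04, limma adjusted p = 0.0695), which did not pass. It passed when replicate numbers entered the fit as a block (adjusted p = 0.0409) and without LPS replicate 2 (log2 difference -0.40, adjusted p = 0.0355), and was -0.11 (adjusted p = 0.665) after median-of-ratios scaling, over a range of adjusted p of 0.0355 to 0.665 in its alternatives. Its mRNA level says nothing of the NRF2 protein, which is controlled mainly by degradation.

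Srxn1 (gene ID 296271), the sulfiredoxin that repairs over-oxidised peroxiredoxins, had 47.6, 78.3 and 46.4 FPKM in Control and 202, 135 and 183 FPKM in LPS. The lowest LPS library was well above the highest Control library, and both of these came from replicate number 2. The rise was 3.03-fold, a log2 difference of 1.60 (SE 0.24, 95% interval 1.05 to 2.15, limma adjusted p = 0.00124).

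Prdx1 (gene ID 117254), the abundant substrate of sulfiredoxin, had 618, 500.4 and 615 FPKM in Control and 1747, 1759 and 1361 FPKM in LPS. Groups did not overlap, and the rise was 2.80-fold, a log2 difference of 1.48 (SE 0.22, 95% interval 0.99 to 1.98, limma adjusted p = 0.00102). The table also lists Prdx1l1, whose name marks it as a Prdx1-like gene, at 87.0 FPKM in Control and 248 FPKM in LPS, with a log2 difference of 1.5 (adjusted p = 0.00329). Reads of near-identical copies can be divided between genes in counting, so the levels of Prdx1 and Prdx1l1 are uncertain.

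Txnrd1 (gene ID 58819), the cytosolic thioredoxin reductase, had 57.4, 78.9 and 62.6 FPKM in Control and 160.0, 119 and 165 FPKM in LPS. Replicate number 2 again held the highest Control and the lowest LPS library, without overlap. The rise was 2.21-fold, a log2 difference of 1.14 (SE 0.16, 95% interval 0.78 to 1.51, limma adjusted p = 0.000903).

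Nqo1 (gene ID 24314), the quinone reductase often used as a readout of NRF2, had 115, 204 and 153 FPKM in Control and 359, 282 and 478 FPKM in LPS. Groups did not overlap although the spread was wide in both, at 28.2% and 26.5% of the mean. The rise was 2.37-fold, a log2 difference of 1.24 (SE 0.23, 95% interval 0.71 to 1.78, limma adjusted p = 0.00371).

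Sod2 (gene ID 24787), the mitochondrial manganese superoxide dismutase, had 351, 247 and 341 FPKM in Control and 1007, 635 and 993 FPKM in LPS. Replicate 2 was the lowest library of both groups, so the rise was alike in the 3 numbers, at log2 differences of 1.52, 1.36 and 1.54. Over the groups it was 2.77-fold, a log2 difference of 1.47 (SE 0.23, 95% interval 0.96 to 1.98, limma adjusted p = 0.00132). The calls of Srxn1, Prdx1, Txnrd1, Nqo1 and Sod2 held in all 18 alternative settings tried, with adjusted p of 2.34e-05 to 0.0153.

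Libraries of number 2 showed the smallest difference for 4 of the 5 risen genes, Sod2 by a narrow margin. Srxn1 differed by 2.06, 0.77 and 1.96 on the log2 scale in numbers 1, 2 and 3, Txnrd1 by 1.46, 0.58 and 1.39, and Nqo1 by 1.63, 0.47 and 1.64. Prdx1 went the other way, with 1.5, 1.81 and 1.14. LPS replicate 2 was the lowest LPS library for 8 of the 10 genes, against 54.2% of all tested genes. The number-2 libraries also had the high class II levels given above, and the part of that in these differences was not tested.

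**Figure D2:**
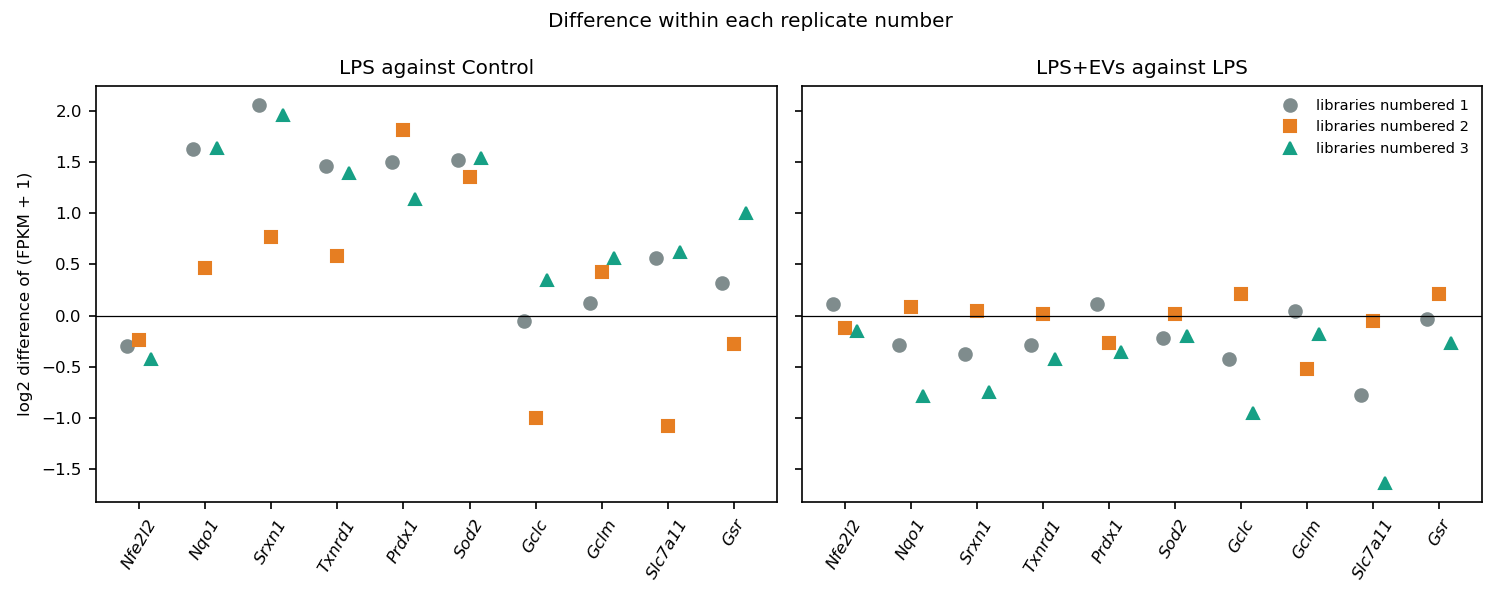
Log2 differences of (FPKM + 1) on the y axis are plotted for each of the 10 genes on the x axis, with 1 point per replicate number, for LPS against Control on the left and LPS+EVs against LPS on the right. Number 2 had the smallest rise of Nqo1, Srxn1 and Txnrd1 and was below 0 for Gclc, Slc7a11 and Gsr on the left, and on the right Slc7a11 was below 0 in all 3 numbers.

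Of the 4 glutathione genes, Gclc, Slc7a11 and Gsr varied more within LPS than between the groups. Gclc (gene ID 25283), the catalytic subunit of glutamate-cysteine ligase, which makes the first and limiting step of glutathione synthesis, had 25.1, 27.8 and 27.4 FPKM in Control and 24.2, 13.4 and 35.0 FPKM in LPS. Control libraries were close together and LPS libraries lay on both sides of them. The log2 difference was -0.23 (SE 0.28, 95% interval -0.87 to 0.40, limma adjusted p = 0.531), and it turned to 0.12 without LPS replicate 2 and to 0.15 without the 3 libraries numbered 2.

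Slc7a11 (gene ID 310392), the cystine importer of system xc-, had 22.2, 35.4 and 33.7 FPKM in Control and 33.1, 16.3 and 52.3 FPKM in LPS. Its LPS libraries spanned the whole Control range, with an SD of 53.2% of the mean against 23.6% in Control. The log2 difference was 0.03 (SE 0.36, 95% interval -0.80 to 0.86, limma adjusted p = 0.951). Its sign turned without Control replicate 1, LPS replicate 1 or LPS replicate 3, at -0.17, -0.02 and -0.35.

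Gsr (gene ID 116686), the reductase that regenerates reduced glutathione, had 66.0, 47.6 and 58.1 FPKM in Control and 82.6, 38.9 and 118 FPKM in LPS. LPS replicates 1 and 3 were above all Control libraries and LPS replicate 2 was below them. The log2 difference was 0.35 (SE 0.40, 95% interval -0.58 to 1.27, limma adjusted p = 0.519), 0.00086 without LPS replicate 3 (adjusted p = 0.999) and 0.79 without LPS replicate 2 (adjusted p = 0.081). It was 0.66 without the libraries numbered 2 (adjusted p = 0.03) and 0.56 when the block and median-of-ratios scaling were combined (adjusted p = 0.0313, range over the alternatives 0.03 to 0.999).

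Gclm (gene ID 29739) had 11.5, 8.44 and 10.1 FPKM in Control and 12.5, 11.8 and 15.3 FPKM in LPS. The groups did not overlap, by a narrow margin. The log2 difference was 0.37 (SE 0.21, 95% interval -0.11 to 0.85, limma adjusted p = 0.188) and passed after median-of-ratios scaling (0.57, adjusted p = 0.0281, range over the alternatives 0.0145 to 0.421). For Gclc, Slc7a11, Gsr and Gclm these intervals leave room for changes of either sign.

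LPS+EVs cultures were compared with LPS to see what the vesicles changed. None of the 10 genes passed in either direction, and the limma test called 0.0% of all 11141 genes, with 295 genes at an unadjusted p under 0.05, of which none was among the 10. The limma-voom fit on recovered reads also called 0 genes. The estimates of all 10 genes were below 0, from -0.82 for Slc7a11 to -0.03 for Gsr. Their median was -0.22, against -0.01 for all tested genes. All 10 stayed below 0 with median-of-ratios scaling, which hardly moved them here (Slc7a11 to -0.81, Gsr to -0.02). Omitting 1 library turned Nfe2l2, Gclm, Prdx1, Gsr and Sod2 above 0, to at most 0.03, 0.01, 0.04, 0.31 and 0.01. Nqo1, Gclc, Txnrd1, Srxn1 and Slc7a11 stayed below 0 in every setting. For no gene among the 10 did the LPS+EVs libraries lie wholly below the LPS libraries, which was so for 3.48% of all tested genes. These genes share libraries and several vary together, so their common sign is a description.

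Slc7a11 had 18.8, 15.7 and 16.1 FPKM in LPS+EVs, beside 33.1, 16.3 and 52.3 FPKM in LPS. It was the 1 gene of the 10 that was lower in all 3 same-numbered pairs, as were 16.8% of all tested genes, and number 2 differed by only -0.05 on the log2 scale while numbers 1 and 3 differed by -0.78 and -1.64. The difference over the groups was -0.82 (SE 0.36, 95% interval -1.65 to 0.01, limma adjusted p = 0.999). It was -1.26 without LPS replicate 2 and -0.44 without LPS replicate 3, and adjusted p ranged from 0.238 to 1.0 over the alternatives.

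Gclc had 17.9, 15.6 and 17.6 FPKM in LPS+EVs, a narrow group that lay between LPS replicate 2 and LPS replicate 1. Its log2 difference from LPS was -0.39 (SE 0.28, 95% interval -1.03 to 0.25). Gclm had 13.0, 7.91 and 13.4 FPKM and Gsr 80.7, 45.1 and 97.4 FPKM, each with replicate 2 lowest, and their differences from LPS were -0.22 (95% interval -0.69 to 0.26) and -0.03 (95% interval -0.95 to 0.89). All 3 had limma adjusted p of 0.999, and the interval of Gsr spans changes of nearly one log2 unit either way.

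Among the genes that LPS had raised, Nqo1 stood at 293, 298 and 277 FPKM in LPS+EVs. These 3 libraries varied by 3.81% of their mean, against 26.5% in LPS, and lay within the LPS range except for replicate 3, which was just below it. The log2 difference from LPS was -0.33 (SE 0.23, 95% interval -0.87 to 0.20). Srxn1 had 155, 139 and 108 FPKM, with a difference of -0.36 (SE 0.24, 95% interval -0.91 to 0.19). Txnrd1 had 131, 119.9 and 123 FPKM, with a difference of -0.23 (SE 0.16, 95% interval -0.60 to 0.14). For Nqo1, Srxn1 and Txnrd1 number 2 did not differ by more than 0.08 on the log2 scale, and numbers 1 and 3 were lower with EVs.

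Prdx1 had 1879.6, 1455 and 1062 FPKM and Sod2 866, 644 and 862 FPKM in LPS+EVs. Their differences from LPS were -0.18 (SE 0.22, 95% interval -0.67 to 0.32) and -0.13 (SE 0.23, 95% interval -0.65 to 0.38). Nfe2l2 had 28.0, 29.6 and 25.1 FPKM, within the LPS range except for replicate 3, and a difference of -0.05 (SE 0.13, 95% interval -0.34 to 0.23). The interval of Nfe2l2 was the narrowest of the 10 and that of Gsr the widest.

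LPS+EVs against Control uses the same Control libraries as LPS against Control, so its values are given beside those above and are not further evidence. Again 5 genes rose, and 1, Nfe2l2, fell, where 13.5% of all tested genes were called higher and 30.8% lower. Groups did not overlap upwards for 5 of the 10 genes (19.6% of all tested genes) and downwards for 3 (40.6%). Sod2 rose 2.53-fold, a log2 difference of 1.34 (SE 0.23, limma adjusted p = 0.00206), and Prdx1 2.48-fold, a difference of 1.31 (SE 0.22, adjusted p = 0.00185). Srxn1 rose 2.36-fold, a difference of 1.24 (SE 0.24, adjusted p = 0.00404). Txnrd1 rose 1.88-fold, a difference of 0.91 (SE 0.16, adjusted p = 0.00257), and so did Nqo1, with a wider SE of 0.23 (adjusted p = 0.0138). These 5 calls held in the 18 alternatives. After median-of-ratios scaling the calls over all genes moved from 1505 higher and 3436 lower to 2073 and 2507.

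Nfe2l2 was 1.30-fold lower in LPS+EVs than in Control, with 27.6 ± 2.32 against 36.1 ± 3.29 FPKM (SD, n = 3 each). The log2 difference was -0.38 (SE 0.13, 95% interval -0.66 to -0.09, limma adjusted p = 0.0383). The call ended after median-of-ratios scaling (-0.15, adjusted p = 0.533) and without Control replicate 2, Control replicate 3 or any 1 of the LPS+EVs replicates (adjusted p = 0.108, 0.115, 0.0785, 0.0534 and 0.111), within a range of 0.0215 to 0.533 over the alternatives.

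Slc7a11 and Gclc were lower in every LPS+EVs library than in any Control library without passing the test. The log2 difference of Slc7a11 was -0.79 (SE 0.36, 95% interval -1.62 to 0.04, limma adjusted p = 0.11) and that of Gclc -0.62 (SE 0.28, 95% interval -1.26 to 0.02, adjusted p = 0.102). Fitted on the 6 compared libraries alone, without the widely spread LPS group, both passed (adjusted p = 0.0135 and 0.00396), as they did without LPS replicate 2 (0.0175 and 0.00799) or LPS replicate 3 (0.0483 and 0.0361). Gclc also passed without the libraries numbered 2 (-0.54, adjusted p = 0.045), where Slc7a11 did not (-0.62, adjusted p = 0.0942). After median-of-ratios scaling neither passed, at -0.57 for Slc7a11 (adjusted p = 0.183) and -0.40 for Gclc (adjusted p = 0.185). The ranges over the alternatives were 0.0135 to 0.25 for Slc7a11 and 0.00396 to 0.214 for Gclc. Gsr differed by 0.32 (SE 0.40, adjusted p = 0.558) and Gclm by 0.15 (SE 0.21, adjusted p = 0.582), and Gsr passed with the block and median-of-ratios scaling together (0.54, adjusted p = 0.0343, range 0.0343 to 0.893).

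**Figure D3:**
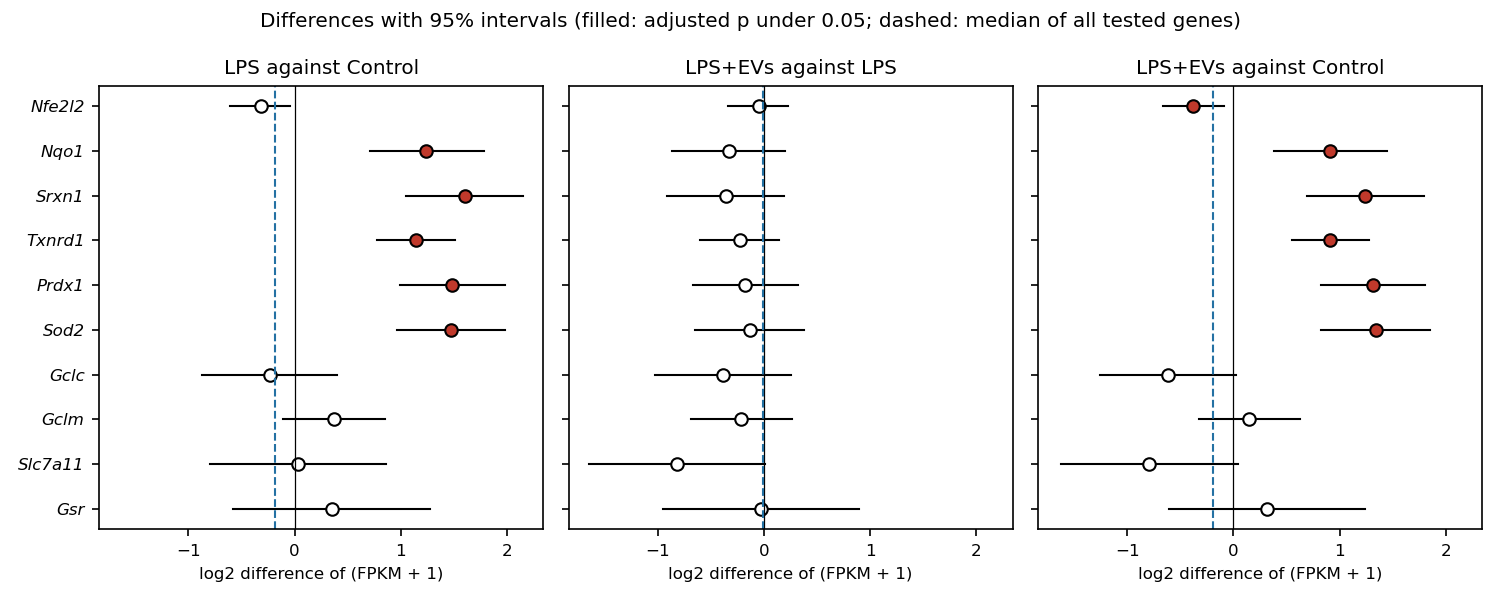
Log2 differences of (FPKM + 1) on the x axis with 95% intervals are plotted for the 10 genes in the 3 comparisons, with filled points for limma adjusted p under 0.05 and a dashed line at the median of all tested genes. The same 5 genes were filled to the right in both comparisons with Control, Nfe2l2 was filled to the left in LPS+EVs against Control, and no point was filled for LPS+EVs against LPS.

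Since FPKM is per length, ratios between related genes can be read within a library. The ratio of Gclc to Gclm, the catalytic to the regulatory subunit of 1 enzyme, had means of 2.73 ± 0.55 in Control, 1.79 ± 0.585 with LPS alone and 1.55 ± 0.366 with LPS and EVs (SD, n = 3 each). Control libraries ran from 2.19 to 3.29 and LPS+EVs libraries from 1.31 to 1.98, without overlap, while LPS libraries, from 1.14 to 2.28, overlapped with both.

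Sod2 made up 58.5 ± 3.63% of the summed FPKM of the 3 superoxide dismutase genes in Control, 74.7 ± 4.24% with LPS alone and 71.8 ± 4.25% with LPS and EVs. Prdx1 made up 20.5 ± 2.91% of the summed FPKM of the 6 peroxiredoxin genes in Control, 36.3 ± 1.21% with LPS alone and 32.5 ± 6.18% with LPS and EVs. For both shares the Control libraries lay below all libraries of the treated groups. With 3 libraries against 3 the two-sided exact permutation test cannot go below p = 0.1, and that p was reached by both shares in each comparison with Control and by the Gclc to Gclm ratio in LPS+EVs against Control (0.18 adjusted over 9 comparisons). The Gclc to Gclm ratio gave an exact permutation p = 0.2 in LPS against Control. In LPS+EVs against LPS the exact permutation p was 0.7 for Gclc to Gclm, 0.5 for Sod2 and 0.4 for Prdx1. The permutation does not use the replicate numbers. Within them the Sod2 share was lower with EVs than with LPS alone in all 3, at 76.7 against 78.5, 69.0 against 70.1 and 69.7 against 75.5%. The Prdx1 share was mixed, at 39.2 against 37.6, 31.1 against 36.3 and 27.1 against 35.2%. So was the Gclc to Gclm ratio, at 1.38 against 1.93, 1.98 against 1.14 and 1.31 against 2.28. With LPS against Control that ratio was lower in all 3, at 1.93 against 2.19, 1.14 against 3.29 and 2.28 against 2.70. Agreement of the 3 numbers was not tested and is a description.

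**Figure D4:**
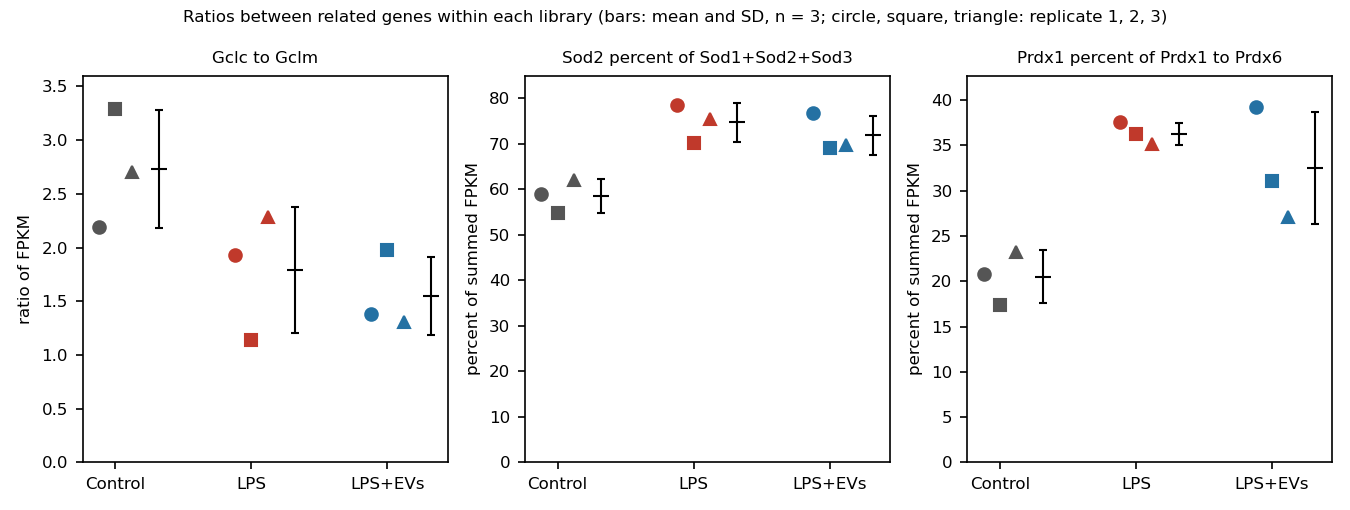
Points are libraries and bars the mean and SD of 3 libraries for the Gclc to Gclm ratio of FPKM and for the Sod2 and Prdx1 percentages of the summed FPKM of their families, by group on the x axis. The Sod2 and Prdx1 shares were higher in all 6 libraries with LPS than in Control, and the Gclc to Gclm ratio was lowest in mean in LPS+EVs.

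The 10 genes fell into patterns that the treatment groups describe only in part. Over the 9 libraries, which share groups and replicate numbers, Txnrd1 and Srxn1 had a Pearson r of 0.98 on log2(FPKM + 1), and 0.86 after removal of group means. Nqo1 and Txnrd1 had 0.97 and 0.90 in the same order. Gclc and Slc7a11, neither of which passed between Control and LPS, had 0.93 and 0.95, so their libraries went together within groups. Gsr and Sod2 had 0.59 over all libraries and 0.90 within groups, and Nfe2l2 and Sod2 had -0.92 and -0.80. Prdx1 and Nqo1 had 0.77 over all libraries and -0.42 within groups, where their libraries no longer went together.

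The genes most alike in pattern to each of the 10, over 9 libraries and among 7243 candidates, were described by Pearson r alone. Rgs1, a regulator of G-protein signalling, was among the most alike of Srxn1 (r = 0.984), Nqo1 (0.978) and Txnrd1 (0.987). Txnrd1 was also close to Met (0.99), Nqo1 to Traf1 (0.977) and Srxn1 to Phlda1 (0.982). Prdx1 was closest to Atg12 (0.993) and Prdx1l1 (0.988), and Sod2 to Wfdc21 (0.992) and Cpd (0.991). Gclc was closest to Son (0.99) and Chsy1 (0.981), Slc7a11 to Prdm4 (0.978) and Ddx6 (0.961), and Gsr to Ube2q1 (0.981) and Gfpt2 (0.98). Nfe2l2 was closest to Ubfd1 (0.973) and Rpf1 (0.97), and the likeness was weakest for Gclm, to Tmf1 (0.918) and Zfp35 (0.889).

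The rest of the pathway was read from 4 lists with 68 further genes, of which 65 were tested. In LPS against Control 12 rose and 12 fell, with a median of 0.07 on the log2 scale, where the 10 genes had 0.76 and all tested genes -0.19. Of all tested genes 12.3% were called higher and 28.7% lower in this comparison, the shares against which the counts of each list below are to be read. With median-of-ratios scaling 18 rose and 8 fell.

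Of 11 tested NRF2 regulators 3 rose and 1 fell, with a median of 0.31. Maff, a small MAF partner of NRF2, rose from 8.51, 17.5 and 11.4 FPKM to 38.3, 34.6 and 57.2 FPKM, a log2 difference of 1.74 (SE 0.30, limma adjusted p = 0.00243). Btrc, part of a ligase that also targets NRF2, rose by 0.60 (adjusted p = 0.0284) and Gsk3b, the kinase that marks NRF2 for that ligase, by 0.30 (adjusted p = 0.0378). Keap1 fell from 19.0, 25.2 and 19.3 FPKM to 14.9, 11.7 and 16.8 FPKM, a log2 difference of -0.52 (SE 0.18, adjusted p = 0.0461). The Btrc, Gsk3b and Keap1 calls ended in 7, 10 and 12 of the 18 alternatives, among them the omission of any 1 Control library, of LPS replicate 1 or 3 or any LPS+EVs library for Gsk3b, of LPS replicate 2 for Btrc, and of LPS replicate 1 or 2 or LPS+EVs replicate 1 or 2 for Keap1. Their adjusted p reached 0.0964, 0.118 and 0.251. The Keap1 call also ended after median-of-ratios scaling (-0.32, adjusted p = 0.164) and without the libraries numbered 2 (-0.26, adjusted p = 0.251). Bach1, a repressor at the same elements, differed by 0.08 (adjusted p = 0.713).

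Of 19 tested glutathione genes besides the 4 above none rose and 5 fell, with a median of -0.26, where all tested genes had 28.7% called lower and a median of -0.19, so the share that fell was close to that of all genes. The glutathione transferases Gstm1, Mgst3 and Gsto1 fell, with log2 differences of -1.48, -2.10 and -1.10 (adjusted p = 0.000186, 0.000711 and 0.00936), and the glyoxalase Glo1 fell, at -0.61 (adjusted p = 0.0123, but 0.0511 without Control replicate 1 and 0.104 after median-of-ratios scaling). The fifth was Glrx2, a mitochondrial glutaredoxin, at -0.83 (adjusted p = 0.0494), just under the threshold. It had 7.12, 5.2 and 6.33 FPKM in Control and 3.63, 1.62 and 4.37 FPKM in LPS. Its alternatives in this comparison are not reported here. Its fall in LPS+EVs against Control (-0.96, adjusted p = 0.0274) ended in 5 of 18 alternatives.

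Of 16 tested thioredoxin, peroxiredoxin and superoxide genes 2 rose and 4 fell, with a median of 0.12, both counts close to the shares of all tested genes. Prdx6 and Cat (catalase) rose by 1.20 and 0.75 (adjusted p = 0.00188 and 0.0137). Prdx4 of the endoplasmic reticulum and the mitochondrial Prdx3, Txnrd2 and Txn2 fell, with log2 differences of -1.44, -1.13, -0.94 and -0.43 (adjusted p = 0.000453, 0.00483, 0.0212 and 0.0121), though Txn2 did not pass after median-of-ratios scaling (-0.21, adjusted p = 0.269). Sod2, also mitochondrial, was higher in the same comparison. Sod1, the cytosolic superoxide dismutase, differed by 0.40 (adjusted p = 0.0657), and passed with the replicate block (adjusted p = 0.0432), without LPS+EVs replicate 3 (0.0353) and after median-of-ratios scaling (0.61, adjusted p = 0.012).

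Of 19 tested NRF2 target enzymes 7 rose and 2 fell, with a median of 0.18. Hmox1, the haem oxygenase, rose 6.34-fold from 187, 68.2 and 161 FPKM to 1003, 609 and 879.6 FPKM (adjusted p = 0.000852), and the ferritin chain Fth1 rose 4.83-fold (adjusted p = 0.000124, but 0.0936 with no filter on low values). Ftl1, Akr1b8, Ptgr1 and Blvrb were also among the 7, with log2 differences of 1.30, 2.09, 2.6 and 0.54. Ferritin chains have many near-identical copies in mammalian genomes, among which counting can divide reads, so their levels are uncertain. Ephx1 and Cbr3, an epoxide hydrolase and a carbonyl reductase, fell, with log2 differences of -1.73 and -1.98 (adjusted p = 0.000355 and 0.000607).

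In LPS+EVs against LPS none of the 65 genes passed, and their median was 0.07. Keap1 differed by 0.17, Bach1 by -0.23, Maff by -0.13, Hmox1 by -0.17, Sod1 by 0.08 and Cat by -0.05 (adjusted p = 0.999 for each). In LPS+EVs against Control, with the shared Control libraries, 15 of the 65 rose and 10 fell, where 13.5% of all tested genes were called higher and 30.8% lower. Cat rose by 0.70 (adjusted p = 0.0169), a call that ended without Control replicate 2, LPS+EVs replicate 1 or LPS+EVs replicate 3 (adjusted p = 0.0531, 0.0574 and 0.0551). Keap1 differed by -0.35 (adjusted p = 0.142).

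**Figure D5:**
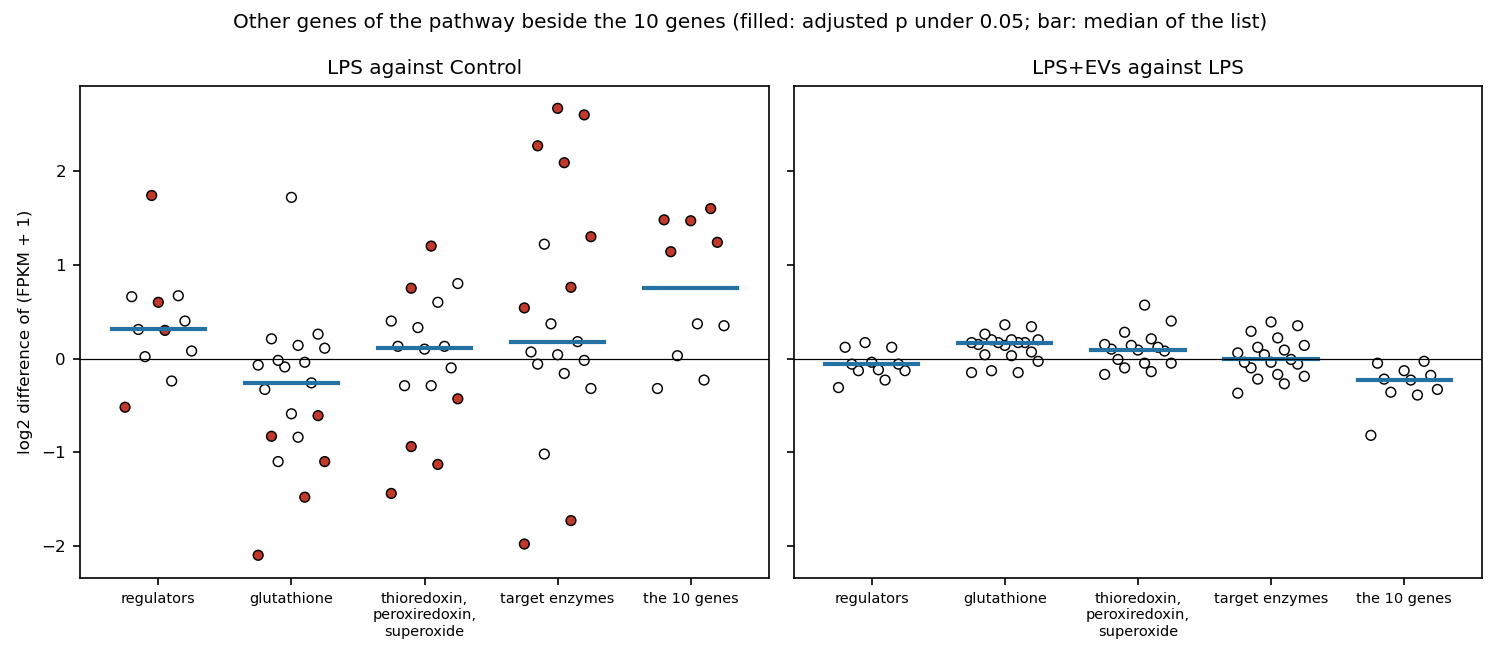
Log2 differences of (FPKM + 1) on the y axis are plotted per gene for 4 lists of other pathway genes and the 10 genes on the x axis, for LPS against Control on the left and LPS+EVs against LPS on the right, with filled points for limma adjusted p under 0.05 and bars at list medians. On the left glutathione genes were filled only below 0 and target enzymes mostly above, and on the right no point was filled.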

How the data were processed

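RNA from 9 cultures (3 each of Control, LPS and LPS+EVs) was sequenced by the submitters. The deposited table holds FPKM for 20442 genes with symbols and gene IDs. Per the submitters' processing notes fastp, HISAT2, HTSeq, R 3.2.0 and the build mRatBN7.2 were used, with settings not given in the sources used here, and strand use is not stated. The unit FPKM was read from the deposited values: their steps gave whole reads, within 0.002 reads, for 100.0% of the 18833 genes seen in at least 2 libraries.

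The 10 genes, the other lists (written from textbook knowledge) and the tests were chosen with earlier results of these data known. Genes with at least 1 FPKM in 3 libraries were tested with limma 3.58.1 in R 4.3.3 (trend, all 9 libraries, log2(FPKM + 1)), two-sided, with Benjamini-Hochberg adjustment over 11141 genes at 0.05. Named genes are all 10, up to 4 passing genes with the smallest adjusted p per list and comparison, Keap1, Bach1, Sod1 and Cat, and the 2 most alike genes for each of the 10 (mean of at least 5 FPKM). Further risen or fallen genes of those lists (Glrx2, Txnrd2, Ftl1, Akr1b8, Ptgr1 and Blvrb) were named after their values were seen, and some list members are not reported here by name.

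Alternatives were a pseudocount of 0.1 FPKM, no filter, a filter of 5 FPKM, median-of-ratios scaling, the replicate block with and without it, the 6 compared libraries alone, the libraries numbered 2 left out, limma-voom on recovered reads and each of the 9 libraries left out. After removal of group means, same-numbered libraries correlated across groups at 0.284 to 0.863 and others at -0.745 to 0.426, ranges that overlap. For every library, the same-numbered library had the highest correlation with it in each other group. Replicate numbers from the labels were therefore taken as pairing cultures in the block alternatives and the same-numbered differences only. The main fit, which gave the calls, had no block. Python 3.11.15, pandas 2.3.3, numpy 2.4.6, scipy 1.17.1 and matplotlib 3.10.9 were used. The fit and the recovery of reads were tested on simulated data.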

Additional observations from a re-analysis of the deposited data

How the results depend on the processing

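Over 18 alternatives per comparison, the direction and call of the 10 genes held in 169 of 180 cases for LPS against Control, 172 of 180 for LPS+EVs against LPS and 165 of 180 for LPS+EVs against Control. The changed filters, the compared libraries alone, the replicate block without scaling and leaving out a library outside the comparison kept the main estimate. These settings could change a call but not a direction, so the counts overstate how widely direction was tried. In LPS+EVs against LPS the main fit called none of the 10 genes, so no call could be lost there. Direction turned only for uncalled differences. For LPS against Control, Gclc turned to 0.15 without the libraries numbered 2. Leaving out each library in turn, the log2 difference in that comparison ran from -0.54 to 0.12 for Gclc, -0.35 to 0.47 for Slc7a11 and -0.01 to 0.23 for Bach1. In LPS+EVs against LPS it ran from -0.12 to 0.03 for Nfe2l2, -0.34 to 0.01 for Gclm, -0.37 to 0.04 for Prdx1, -0.47 to 0.31 for Gsr, -0.35 to 0.01 for Sod2, -0.06 to 0.19 for Sod1 and -0.23 to 0.10 for Cat. Bach1 in LPS+EVs against Control was 0.07 with median-of-ratios scaling, with or without the replicate block. Leaving out 1 library, 0 to 1 of all genes passed in LPS+EVs against LPS (1 without LPS replicate 2). With the replicate block as pairing, the call of Nfe2l2 in LPS against Control (adjusted p = 0.0409) was the only change among the 10 genes, and the other pathway genes called went from 24 to 34 in LPS against Control and from 25 to 35 in LPS+EVs against Control, or 39 with median-of-ratios scaling as well. The cause of these changes was not tested. Counting error was small for all 10 genes, the fewest reads being 414 for Gclm, and the 3 libraries per group limit what can be seen.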

Other observations

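Txnrd1 and several glutathione peroxidases contain selenocysteine, so genes of selenoprotein synthesis were counted too. Of 16 tested selenoproteins and genes of their synthesis 1 rose and 8 fell in LPS against Control, with a median log2 difference of -0.55, against -0.19 for all tested genes, of which 12.3% were called higher and 28.7% lower. Sephs2 and Sephs1, selenophosphate synthetase genes, fell by 0.96 and 0.82 (limma adjusted p = 0.00082 and 0.00149). Selenop, the secreted selenium carrier, fell from 91.9, 86.1 and 104 FPKM to 11.9, 34.4 and 11.5 FPKM (log2 difference -2.41, SE 0.41, adjusted p = 0.0023). Selenok of the endoplasmic reticulum was the gene that rose, by 0.66 (SE 0.11, adjusted p = 0.0018). In LPS+EVs against LPS none of the 16 passed.

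Mt1, a metal-binding metallothionein, had 66.0, 16.8 and 48.5 FPKM in Control, 397, 81.8 and 282 in LPS and 269, 66.3 and 139 in LPS+EVs, with replicate 2 lowest in each group. It rose in LPS against Control (log2 difference 2.43, SE 0.73, limma adjusted p = 0.0275), and the call ended without Control replicate 2 or 3, without LPS replicate 1 or 3 and with no filter (adjusted p = 0.0911, 0.0549, 0.0889, 0.0715 and 0.0664). Leaving out 1 library moved the difference between 1.87 without Control replicate 2 and 3.11 without LPS replicate 2. Of the 2 tested metallothioneins Mt2A did not pass in any comparison, and none passed in LPS+EVs against LPS.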
